A study of Homo sapiens with 12 samples.

Results

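The replication-dependent histone genes encode the linker histone H1 and the core histones H2A, H2B, H3 and H4 and lie in clusters on chromosomes 6 and 1. A row of the authors' normalized gene table was taken as a member when its symbol was a clustered histone name (H1-1 to H1-5, or H2AC, H2BC, H3C or H4C followed by a number, or an older HIST name) and any of its values was above 0. This took 56 of 28813 rows, namely 4 H1, 15 H2A, 15 H2B, 11 H3 and 11 H4 genes. Of these, 46 lay in the chromosome 6 cluster and 10 in the chromosome 1 cluster (GRCh38). A further 8 rows matched by name but were listed at 0 in every library (H1-1, H2AC1, H2BC1, H2BC10, H3C8, H4C2, H4C6 and H4C7).

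RNA came from MKL-1, an established human Merkel cell carcinoma line. Cells received EPZ011989 at 3 µM in 1% ethanol, or 1% ethanol alone (vehicle), and were collected at day 6 or day 12, with 3 libraries in each of the 4 groups. EPZ011989 is an inhibitor of EZH2, the methyltransferase of Polycomb repressive complex 2. Libraries were made by polyA capture. All groups are a single cell line. Separate cultures are not stated for the libraries of a group, so a p-value here reflects library-to-library spread only, which could be technical.

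Replication-dependent histone mRNAs are the best known animal mRNAs that normally lack a polyA tail. Their 3′ end is cut just after a conserved stem-loop that is bound by SLBP (stem-loop binding protein), with the U7 snRNP guiding the cut, and the mRNAs accumulate in S phase and are degraded when replication stops. Some of these genes also make polyadenylated transcripts that read past the stem-loop to a downstream polyA signal. PolyA capture recovers such transcripts and few of the tail-less ones, so the values below describe the polyadenylated or carried-over part of histone mRNA.

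The stem-loop is printed here because the stretch of transcript after it shows how far each annotated transcript runs beyond the usual 3′ end. It was searched in the transcripts whose version was the same in the deposited tables and in GENCODE release 29 (GRCh38), and was found in 24 members. The lines give, 5′ to 3′ on the transcript strand, the stem-loop in capitals with 5 flanking bases on each side, for the 9 members called at day 12 in which it was found.
H2BC21: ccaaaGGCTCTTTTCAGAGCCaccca
H2BC15: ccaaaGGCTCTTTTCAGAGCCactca
H2BC5: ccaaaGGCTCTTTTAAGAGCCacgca
H3C6: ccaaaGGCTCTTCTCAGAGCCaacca
H4C14: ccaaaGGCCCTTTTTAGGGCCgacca
H2AC11: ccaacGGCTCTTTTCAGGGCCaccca
H2AC13: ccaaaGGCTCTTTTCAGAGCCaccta
H2BC9: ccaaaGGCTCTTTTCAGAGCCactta
H3C10: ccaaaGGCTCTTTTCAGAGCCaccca
H2BC21, H2BC15, H2AC13, H2BC9 and H3C10 carry the same 16 bases. H4C14 has another stem, and H2BC5, H3C6 and H2AC11 each have a form of their own in this set. In H2BC21 the transcript of 2194 bases runs 1729 bases past the stem-loop, in H2AC11 1761 bases, in H2BC9 1640 bases and in H3C10 769 bases. In H2AC13 it stops 39 bases after the stem-loop. Among all member transcripts of at least 600 bases, a limit chosen after the lengths were seen, 22 held a stem-loop, with 212 to 1862 bases after it.

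Libraries held 15994997 to 20866370 estimated reads. Levels are given in CPM (estimated counts scaled to a common library size, with the TMM adjustment of library totals). Without TMM the 56 members took 41.0 to 66.7 CPM, and 3 reads in a library corresponded to 0.147 to 0.193 CPM. Only 23 of the 56 members passed the filter on low counts and were tested. The 33 others had at most 17 reads in any library. Summed CPM of 10 Merkel cell carcinoma markers was 3188 to 3230 in vehicle and 2639 to 2681 with EPZ011989 at day 6, and 2812 to 3123 and 2648 to 2835, overlapping, at day 12. Fibroblast markers (5 genes) summed to 14.6 to 18.6 and 21.3 to 28.6 CPM at day 6 and to 9.67 to 14.4 and 17.8 to 19.4 CPM at day 12. Leukocyte markers (6 genes) summed to 9.78 to 10.5 and 2.24 to 3.18 CPM at day 6 and to 4.06 to 5.61 and 0.562 to 0.654 CPM at day 12. Endothelial markers (4 genes) summed to 0.423 to 1.30 and 0.577 to 1.54 CPM, overlapping, at day 6 and to 0.322 to 0.729 and 1.79 to 2.61 CPM at day 12. None of these 15 genes was at 0 in every library, and the part of the marker sums that separated by treatment in the histone values was not tested.

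In CPM, histone mRNA was higher in sum at day 12 of treatment, and the net added reads lay in the chromosome 1 cluster. Much of this was the gene H2BC21, at 4.05 ± 0.327 CPM in day 12 vehicle and 15.9 ± 0.596 CPM with EPZ011989. H2BC21 enters the sums by cluster, by transcript length and by histone type, so these are not separate results. No sum without it was taken. All members together held 44.4, 46.3 and 47.5 CPM in day 6 vehicle and 41.9, 43.3 and 43.8 CPM in day 6 EPZ011989. They held 45.5, 43.8 and 45.2 CPM in day 12 vehicle and 67.6, 61.3 and 61.2 CPM in day 12 EPZ011989. In CPM the day 12 treated libraries lay above the 9 others, which spanned a narrow range. This depends on the unit. Per transcript length, in TPM, all members summed to 163 ± 0.996 in day 6 vehicle and 135 ± 4.07 with EPZ011989. At day 12 they summed to 145 ± 8.95 TPM in vehicle and 169 ± 19.9 TPM with EPZ011989. In TPM the day 6 vehicle mean was thus close to that of day 12 EPZ011989. No test was made of a sum over members.

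The chromosome 1 cluster (10 members, 149782689 to 149887916) gave 14.3 ± 0.986 CPM in day 12 vehicle (SD, n = 3) and 33.5 ± 2.08 CPM with EPZ011989. The chromosome 6 cluster (46 members) gave 30.5 ± 1.09 and 29.8 ± 2.50 CPM in the same groups, with overlapping libraries. At day 6 chromosome 1 members summed to 14.2 ± 1.10 CPM in vehicle and 15.5 ± 0.434 CPM with EPZ011989, again overlapping. Chromosome 6 members summed to 31.8 ± 0.895 and 27.5 ± 1.39 CPM at day 6, and there the treated libraries lay below the vehicle ones. Per transcript length, in TPM, the chromosome 1 sum was 35.6 ± 4.36 in day 12 vehicle and 78.5 ± 12.7 with EPZ011989, the chromosome 6 sum 109 ± 10.4 and 90.9 ± 7.56, and the sum of all members 145 ± 8.95 and 169 ± 19.9.

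**Figure D1:**
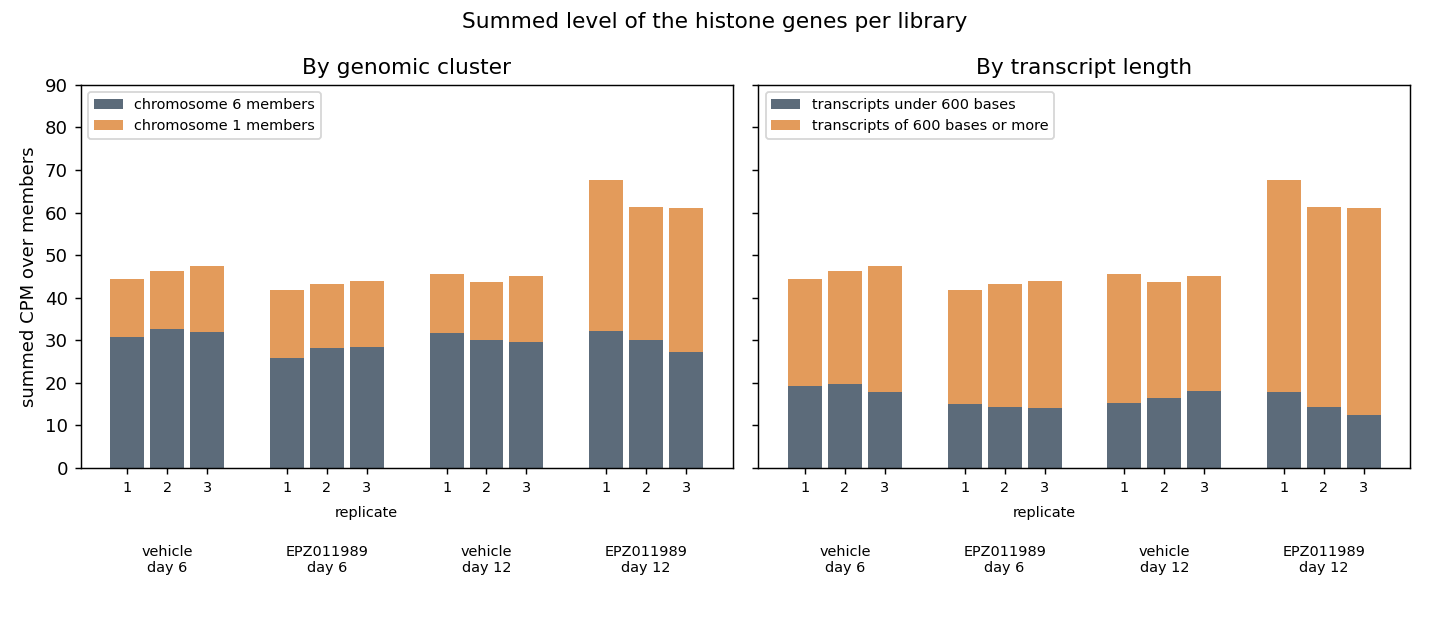
Summed CPM of the 56 members in each of the 12 libraries, stacked by genomic cluster (left) and by length of the transcript the reads were assigned to (right). The 3 EPZ011989 day 12 bars reach 61.2 to 67.6 CPM, and their net added height lies in the chromosome 1 members and in the transcripts of 600 bases or more. H2BC21 belongs to both.

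By transcript, the net added reads lay on annotated transcripts of 600 bases or more. This is a limit of length only: 22 of these 34 transcripts held a stem-loop, in 8 none was found, and the rest, among them H1 transcripts of 731 to 797 bases, were not searched. Member transcripts of 600 bases or more (34 of 78) held 28.3 ± 1.74 CPM in day 12 vehicle and 48.5 ± 1.42 CPM with EPZ011989, and the 44 shorter ones held 16.6 ± 1.41 and 14.8 ± 2.73 CPM. Shorter transcripts went both ways. H2AC18 and H2AC19 (549 and 564 bases) summed to 2.15 ± 0.883 CPM in day 12 vehicle and 4.82 ± 0.991 CPM with EPZ011989. The H4C14 transcript of 583 bases had a mean of 6.07 and 55.5 reads. Others, such as that of H2BC12 (495 bases), fell. The share of member reads on long transcripts was 59.99 to 66.5% in day 12 vehicle and 73.7 to 79.8% with EPZ011989, and 56.8 to 62.4% and 64.2 to 68.0% at day 6. At both days the treated range lay above the vehicle range. These shares rest on the authors' assignment of reads to transcripts, which is uncertain where transcripts share sequence. Many members, H2BC21 among them, have a single annotated transcript, so their length class is fixed and follows the gene level. A higher share on long transcripts therefore need not be a change of transcript within a gene.

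By histone type, most of the added reads were H2B. H2B members summed to 21.6 ± 1.37 CPM in day 12 vehicle and 37.0 ± 2.44 CPM with EPZ011989, and H4 members to 5.12 ± 0.515 and 8.69 ± 0.302 CPM. H2A members summed to 10.4 ± 1.96 and 10.8 ± 1.77 CPM and H3 members to 4.94 ± 0.439 and 5.58 ± 1.08 CPM, both with overlapping libraries. H1 members summed to 2.82 ± 1.05 CPM in vehicle and 1.31 ± 0.666 CPM with EPZ011989, and the 3 treated libraries lay below the 3 vehicle libraries. The picture by type depends on the unit. Per transcript length, H2B members summed to 63.4 ± 11.4 TPM in day 12 vehicle and 79.3 ± 13.6 TPM with EPZ011989. H3 members went the other way, 13.4 ± 3.86 and 9.22 ± 2.41 TPM, while the means of H1, H2A and H4 kept their direction. At day 6 H2B members summed to 21.7 ± 1.23 CPM in vehicle and 23.1 ± 1.13 CPM with EPZ011989, H2A to 9.78 ± 0.754 and 8.15 ± 1.32 CPM, both with overlapping libraries. H3 members summed to 5.03 ± 0.452 and 4.19 ± 0.483 CPM at day 6, and there the treated libraries lay below the vehicle ones. In CPM, H1 and H4 members overlapped at day 6, at 3.87 ± 0.730 and 3.04 ± 1.17 CPM and at 5.67 ± 0.879 and 4.52 ± 0.861 CPM. The unit matters at day 6 too. Per transcript length, H4 members summed to 24.98 ± 1.96 TPM in day 6 vehicle and 14.003 ± 2.89 TPM with EPZ011989. The day 6 TPM means of H1, H2A, H2B and H3 were also lower with EPZ011989, so that of H2B went against its CPM mean.

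Member by member, the fit of all genes called 11 of the 23 tested members at day 12, 5 higher and 6 lower (edgeR quasi-likelihood test, Benjamini-Hochberg adjusted p under 0.05). Of all 15004 tested genes, 67% were called at day 12, 33.7% higher and 33.3% lower, so the members' share was not above the background. At day 6, 4 of 23 were called, higher H2BC21 and H2AC19 and lower H2BC9 and H4C15, against 34.2% of all genes. The raised genes at day 12 were H2BC21, H2BC15, H2BC5, H3C6 and H4C14, and the lowered ones H2AC11, H2AC13, H2AC20, H2BC12, H2BC9 and H3C10. Of these, H3C6 was tested only because its day 12 treated libraries passed the filter. H2AC13, among the lowered genes, was tested only because vehicle libraries passed it. The median log2 fold change of the tested members was -0.12 at day 6 and 0.45 at day 12, beside -0.02 and 0.02 for all tested genes. The day 12 median changed sign, to -0.0764, when 4 near-identical copies, whose reads were split unevenly, were left out, and was 0.55 with these copies counted as 2 sums.

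**Figure D2:**
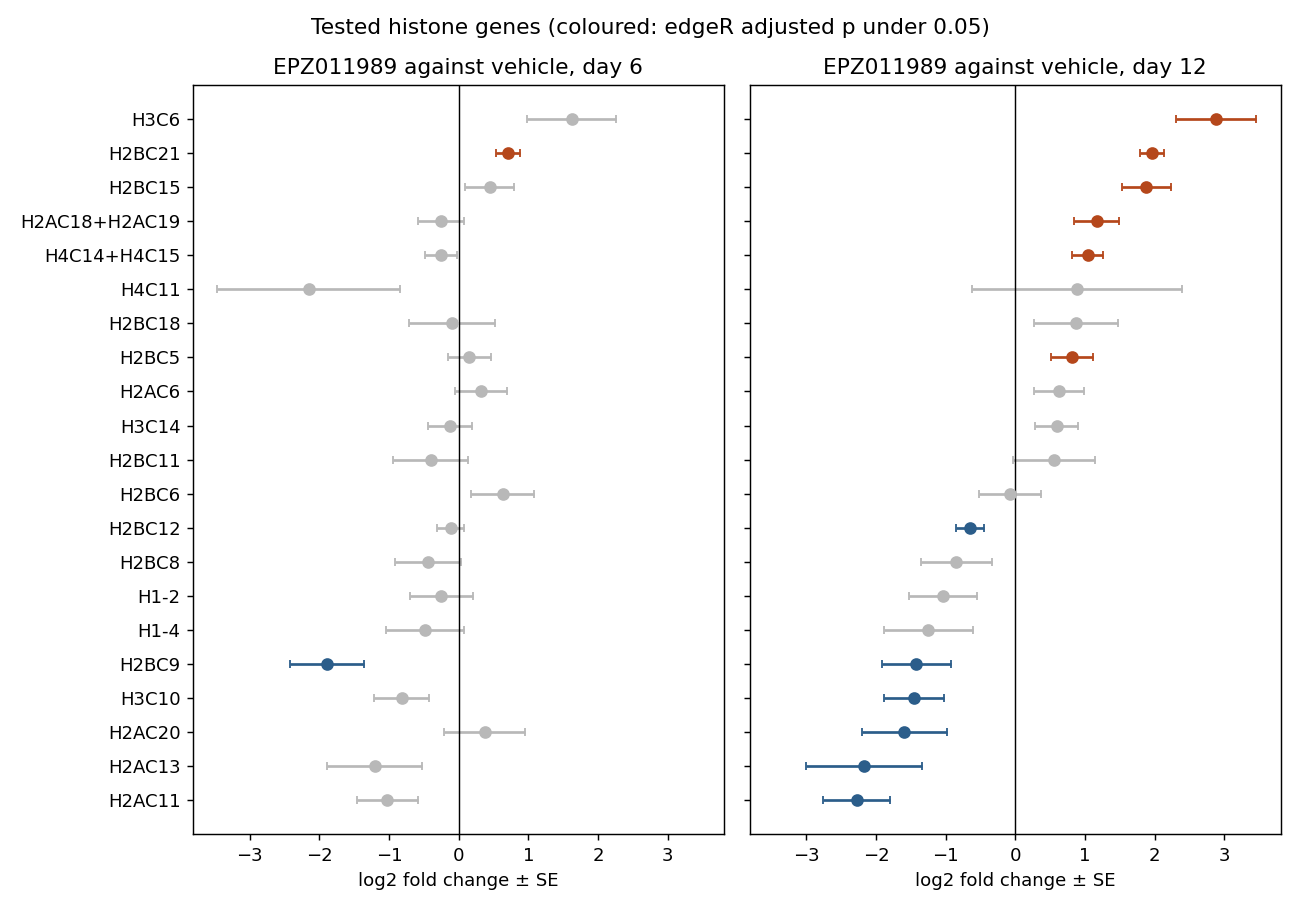
Log2 fold change ± SE of EPZ011989 against vehicle for the tested members at day 6 (left) and day 12 (right), with 2 pairs of near-identical copies drawn as their sums. Coloured points passed the edgeR threshold. H3C6, H2BC21 and H2BC15 stand highest at day 12 and H2AC11 lowest. H3C6 passed the low-count filter only through its day 12 treated libraries, and H2AC13 only through vehicle libraries.

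H2BC21, an H2B gene of the chromosome 1 cluster (149884459 to 149886652, minus strand, a single exon), had the highest CPM of all members in day 12 EPZ011989. In the other groups H2BC12 was higher. Its levels were 4.03, 3.80 and 3.28 CPM in day 6 vehicle, 6.61, 4.55 and 6.99 CPM with EPZ011989 at day 6, 3.86, 4.43 and 3.87 CPM in day 12 vehicle, and 15.97, 15.2 and 16.4 CPM with EPZ011989 at day 12. Treated libraries lay above vehicle libraries at both days, and day 12 treated libraries stood far above all others. The log2 fold change was 0.71 ± 0.17 at day 6 (edgeR adjusted p = 0.0057) and 1.97 ± 0.17, or 3.91-fold, at day 12 (edgeR adjusted p = 1.21e-07). The rise at day 12 exceeded that at day 6 by 1.25 ± 0.24 on the log2 scale (edgeR adjusted p = 6.92e-04). Its only annotated transcript is that of 2194 bases with the stem-loop shown above, so all its reads were assigned there.

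H2BC15 and H2BC5, H2B genes of the chromosome 6 cluster, also rose at day 12. H2BC15 had 1.33, 2.17 and 1.85 CPM in day 6 vehicle, 2.69, 1.80 and 2.77 CPM with EPZ011989, 3.03, 1.23 and 1.16 CPM in day 12 vehicle, and 6.81, 7.29 and 5.79 CPM with EPZ011989. The day 6 groups overlapped, and at day 12 the treated libraries stood above all others. The day 12 log2 fold change was 1.88 ± 0.35 (edgeR adjusted p = 2.43e-04), and that at day 6 was 0.44 ± 0.35 (adjusted p = 0.364). The difference between days was 1.43 ± 0.49 (edgeR adjusted p = 0.027). That call was lost when day 6 vehicle replicate 2 or 3, day 6 EPZ011989 replicate 2, day 12 vehicle replicate 2 or 3, or day 12 EPZ011989 replicate 1 or 2 was left out, with differences of 1.19 to 1.41 and edgeR adjusted p of 0.0513 to 0.0735. Over all libraries the largest part of H2BC15 reads was assigned to a transcript of 4137 bases and 3 exons in which no stem-loop was found, with a mean of 13.7 reads in day 12 vehicle and 82.4 with EPZ011989. The stem-loop shown for H2BC15 is that of its transcript of 1723 bases, with 6.64 and 19.5 reads.

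H2BC5 had 1.55, 2.61 and 3.06 CPM in day 6 vehicle and 2.60, 1.67 and 3.75 CPM with EPZ011989. At day 12 it had 2.64, 3.36 and 3.03 CPM in vehicle and 5.58, 4.98 and 5.396 CPM with EPZ011989. The groups overlapped at day 6 and separated at day 12, with a day 12 effect of 0.82 ± 0.30 on the log2 scale (edgeR adjusted p = 0.0261). The call was lost without day 12 vehicle replicate 1 or 3 or day 12 EPZ011989 replicate 1 or 3 (0.73 to 0.83, edgeR adjusted p = 0.0504 to 0.0746), and under limma on the authors' table with a pseudocount of 1 (0.81, adjusted p = 0.0664). This gene has a short transcript of 496 bases that ends 39 bases after its stem-loop and a spliced transcript of 789 bases without one. The spliced transcript held a mean of 45.9 reads in day 12 vehicle and 101 with EPZ011989, and the short one 3.41 and 0 reads.

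**Figure D3:**
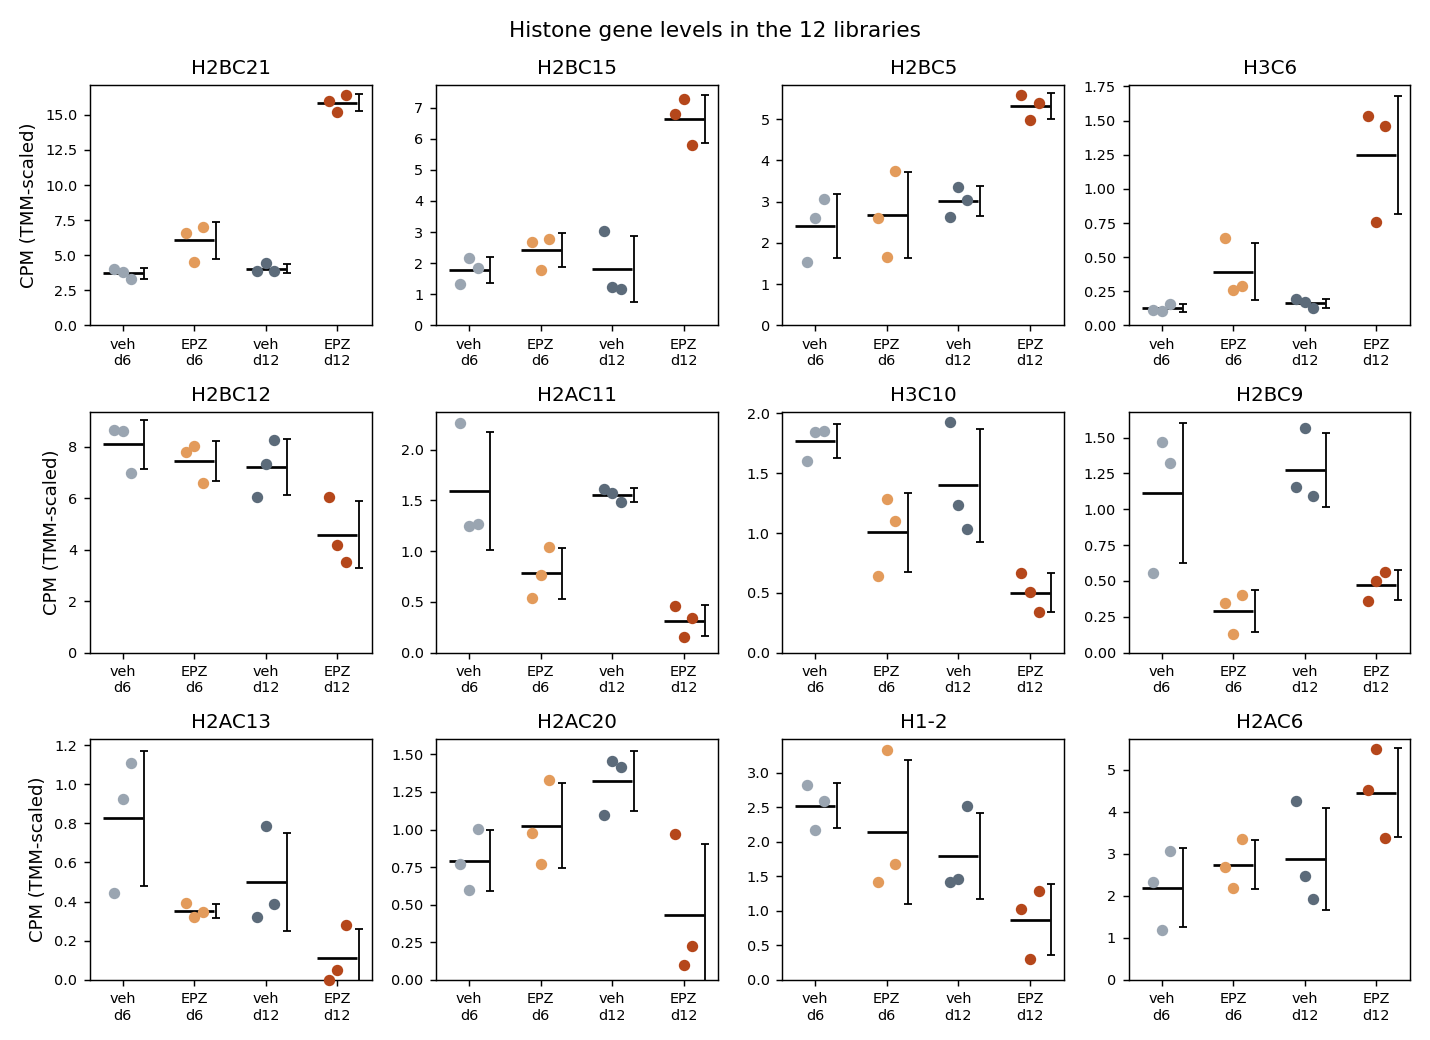
CPM of 12 members in each library (points), with the group mean (line) and SD (bar), for vehicle (veh) and EPZ011989 (EPZ) at days 6 and 12. Treated day 12 libraries lie above all others for H2BC21, H2BC15, H2BC5 and H3C6 and below the vehicle libraries of that day for H2BC12, H2AC11, H3C10, H2BC9, H2AC13, H2AC20 and H1-2. H2AC6 overlaps.

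With an offset for the mean transcript length of each gene in each library, 6 members were called at day 12. H2BC5 (0.80, edgeR adjusted p = 0.0767), H2BC12 (-0.52, adjusted p = 0.0705), H2AC13 (-2.15, adjusted p = 0.0523), H2AC20 (-1.54, adjusted p = 0.065) and H3C6, given below, lost their calls, as did the difference between days for H2BC15 (1.15, adjusted p = 0.155).

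H2BC12, an H2B gene of the chromosome 6 cluster, was the highest member per transcript length. It had 37.9 ± 7.52 TPM in day 12 vehicle and 28.4 ± 8.74 TPM with EPZ011989, beside 3.74 ± 0.353 and 16.1 ± 0.710 TPM for H2BC21. In CPM it had 8.67, 8.64 and 6.97 in day 6 vehicle, 7.79, 8.02 and 6.58 with EPZ011989, 6.05, 7.35 and 8.25 in day 12 vehicle, and 6.04, 4.17 and 3.54 with EPZ011989. At day 12 the highest treated library lay just below the lowest vehicle library. H2BC12 fell by 0.65 ± 0.21 on the log2 scale at day 12 (edgeR adjusted p = 0.0118), and the call was lost without day 12 vehicle replicate 3 or EPZ011989 replicate 3 (log2 fold change -0.54 and -0.50, edgeR adjusted p = 0.0508 and 0.0569). Its only annotated transcript has 495 bases.

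H2BC9, a further H2B gene of chromosome 6, was lower at both days. Its levels were 0.552, 1.47 and 1.32 CPM in day 6 vehicle, 0.343, 0.128 and 0.404 CPM with EPZ011989, 1.16, 1.57 and 1.10 CPM in day 12 vehicle, and 0.358, 0.503 and 0.562 CPM with EPZ011989. Treated libraries lay below vehicle libraries at both days. Its log2 fold change was -1.42 ± 0.50 at day 12 (edgeR adjusted p = 0.021). The day 12 call was lost without vehicle replicate 2 or EPZ011989 replicate 1 or 2 of that day (-1.24, -1.24 and -1.45, edgeR adjusted p = 0.0537 to 0.0822), and the day 6 call without vehicle replicate 2 or 3 or EPZ011989 replicate 2 (-1.56 to -1.73, adjusted p = 0.0536 to 0.0668). Among the other tested H2B genes, H2BC18, H2BC11, H2BC6 and H2BC8 had log2 fold changes of 0.87, 0.55, -0.08 and -0.85 at day 12 and were not called.

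Of the H2A genes, 3 of 6 tested fell at day 12 and none rose among those counted singly. H2AC11 had 2.26, 1.25 and 1.27 CPM in day 6 vehicle, 0.539, 0.770 and 1.04 CPM with EPZ011989, 1.61, 1.57 and 1.48 CPM in day 12 vehicle, and 0.461, 0.151 and 0.337 CPM with EPZ011989. Treated libraries lay below vehicle libraries at both days. The log2 fold change was -1.03 ± 0.44 at day 6 (edgeR adjusted p = 0.0878) and -2.28 ± 0.48 at day 12 (edgeR adjusted p = 7.6e-04). Its only annotated transcript, of 2250 bases, runs past its stem-loop. Genes whose annotated transcript runs past the stem-loop were thus found among the lowered as well as the raised ones.

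H2AC13 had 0.322, 0.785 and 0.387 CPM in day 12 vehicle and 0, 0.0503 and 0.281 CPM with EPZ011989, from 25.0 and 6 estimated reads per group. The ranges did not overlap but came close. H2AC13 passed the low-count filter only through vehicle libraries, where it was high, so its day 12 call is not free of that choice. Its log2 fold change was -2.17 ± 0.83 (edgeR adjusted p = 0.0323), and the call was lost without vehicle replicate 2 or EPZ011989 replicate 1 or 2 of that day (-1.58 to -1.82, edgeR adjusted p = 0.109 to 0.145). H2AC13 shares 63.8% of its 31-base words with H2AC14, so reads may be split between them. H2AC6, the H2A gene of chromosome 6 with the most reads, had 4.25, 2.47 and 1.93 CPM in day 12 vehicle and 4.50, 5.48 and 3.37 CPM with EPZ011989, overlapping, and was not called (log2 fold change 0.63 ± 0.36, edgeR adjusted p = 0.137).

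H2AC20 and H2BC21 are neighbours that start 323 bases apart on opposite strands of chromosome 1, and at day 12 they went in opposite directions. H2AC20 had 0.773, 0.597 and 1.00 CPM in day 6 vehicle, 0.980, 0.770 and 1.33 CPM with EPZ011989, 1.09, 1.46 and 1.42 CPM in day 12 vehicle, and 0.972, 0.101 and 0.225 CPM with EPZ011989. At day 12 treated replicate 1 lay just under the vehicle range and the other two far below it. Its log2 fold change was -1.59 ± 0.61 (edgeR adjusted p = 0.0315), and the call was lost without day 12 vehicle replicate 2 or 3 or EPZ011989 replicate 2 or 3 (-1.11 to -1.54, edgeR adjusted p = 0.0669 to 0.112). By GENCODE gene starts, the 9 head-to-head pairs of H2A and H2B members had starts 219 to 331 bases apart. H2AC15 and H2BC15 are not among these pairs, although their RefSeq promoter windows overlap on opposite strands. The GENCODE start of H2BC15, 27837760, lies upstream of its RefSeq window. Of the 9 pairs, 2 had both genes tested. In the other such pair, on chromosome 6, H2BC11 stood at 0.55 ± 0.59 on the log2 scale (edgeR adjusted p = 0.424) and H2AC11 the fall given above.

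Promoter windows of H2BC21, which lies beside H2AC20, of H2BC15 and of H2AC11 are printed because their day 12 calls held under every alternative in which the gene was tested, as did that of H3C10. They come from RefSeq (GRCh38.p14), run 5′ to 3′ on the gene's strand from 250 bases before to 50 after the start, and show TATAAA (the TATA box core) and CCAAT on either strand in capitals. Their positions are chr1:149886633-149886932 on the minus strand, chr6:27838319-27838618 on the plus strand and chr6:27132793-27133092 on the plus strand.
H2BC21: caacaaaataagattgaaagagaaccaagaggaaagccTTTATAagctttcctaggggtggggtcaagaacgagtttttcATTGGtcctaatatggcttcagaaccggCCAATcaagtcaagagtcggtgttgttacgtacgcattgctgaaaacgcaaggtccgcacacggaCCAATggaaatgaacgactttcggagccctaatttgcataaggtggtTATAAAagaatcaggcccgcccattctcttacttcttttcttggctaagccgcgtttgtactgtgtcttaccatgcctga
H2BC15: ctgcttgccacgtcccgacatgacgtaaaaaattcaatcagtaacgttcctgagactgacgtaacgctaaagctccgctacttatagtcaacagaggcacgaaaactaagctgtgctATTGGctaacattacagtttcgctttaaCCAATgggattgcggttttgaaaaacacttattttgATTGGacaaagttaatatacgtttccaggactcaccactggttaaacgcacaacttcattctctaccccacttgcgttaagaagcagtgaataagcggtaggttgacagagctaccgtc
H2AC11: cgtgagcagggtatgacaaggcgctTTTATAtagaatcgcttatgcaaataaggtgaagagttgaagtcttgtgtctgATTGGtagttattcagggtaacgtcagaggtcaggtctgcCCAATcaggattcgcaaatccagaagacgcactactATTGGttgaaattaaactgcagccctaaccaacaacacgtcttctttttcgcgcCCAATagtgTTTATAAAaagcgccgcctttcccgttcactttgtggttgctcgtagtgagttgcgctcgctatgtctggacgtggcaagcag
H2BC21 and H2AC11 hold both motifs, and H2BC15 holds CCAAT but not TATAAA. Of 59 windows of genes matching the symbol rule, 67.8% held TATAAA and 84.8% CCAAT, against 11.5% and 34.6% of 35116 RefSeq promoter windows of that length. The 59 windows are not all distinct. H2AC7 and H3C4 have the same window, and windows of head-to-head pairs overlap, so a motif on either strand can count for both genes. Among the genes raised at day 12, 3 of 5 windows held TATAAA and 4 of 5 CCAAT, and among the lowered genes 5 of 6 and 6 of 6. A match describes letters in the window, not a bound site.

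Of the 3 tested H3 genes, 1 rose, 1 fell and 1 was not called at day 12. H3C6 on chromosome 6 had 0.110, 0.109 and 0.159 CPM in day 6 vehicle, 0.637, 0.257 and 0.289 CPM with EPZ011989, 0.193, 0.168 and 0.129 CPM in day 12 vehicle, and 1.54, 0.754 and 1.46 CPM with EPZ011989. Treated libraries lay above vehicle libraries at both days, on 8 reads over the 3 day 12 vehicle libraries and 71 over the treated ones. H3C6 passed the low-count filter only through the day 12 treated libraries, where it was high, so its day 12 call is not free of that choice. The log2 fold change was 1.62 ± 0.64 at day 6 (edgeR adjusted p = 0.0637) and 2.88 ± 0.58 at day 12 (edgeR adjusted p = 4.88e-04). With a transcript length offset it was 1.94 (adjusted p = 0.0772), and on the authors' table, under limma with pseudocounts of 1 and 5, it was 1.46 and 0.92 (adjusted p = 0.125 and 0.144).

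H3C10, also on chromosome 6, had 1.60, 1.85 and 1.85 CPM in day 6 vehicle, 0.637, 1.28 and 1.10 CPM with EPZ011989, 1.93, 1.23 and 1.03 CPM in day 12 vehicle, and 0.665, 0.503 and 0.337 CPM with EPZ011989. Treated libraries lay below vehicle libraries at both days. The log2 fold change was -0.82 ± 0.40 at day 6 (edgeR adjusted p = 0.133) and -1.46 ± 0.43 at day 12 (edgeR adjusted p = 0.0078). H3C14 on chromosome 1 had 1.74, 2.36 and 2.71 CPM in day 12 vehicle and 2.81, 2.82 and 4.67 CPM with EPZ011989 (0.59 ± 0.31, edgeR adjusted p = 0.103). The H3C14 transcript is identical over its length to one of H3C15, so this value may hold reads of both.

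The chromosome 1 cluster holds near-identical copies between which reads were split unevenly, and only their sums can be read. H2AC18 and H2AC19 share 97.2 to 100% of their 31-base words. H2AC18 had 2.76, 2.99 and 1.85 CPM in day 6 vehicle, where H2AC19 was at 0, and in day 6 EPZ011989 H2AC19 had 2.35, 1.73 and 0 CPM while H2AC18 had 0, 0 and 2.25 CPM. In 11 of 12 libraries all reads of the pair sat on a single copy, and which copy it was changed within groups. Summed, the pair had 2.76, 2.99 and 1.85 CPM in day 6 vehicle, 2.35, 1.73 and 2.25 CPM with EPZ011989, 2.90, 1.18 and 2.38 CPM in day 12 vehicle, and 5.94, 4.47 and 4.05 CPM with EPZ011989. The sum was not called at day 6 (log2 fold change -0.26 ± 0.33, edgeR adjusted p = 0.591) and rose at day 12 (1.17 ± 0.32, edgeR adjusted p = 0.00534), with a difference between days of 1.42 ± 0.46 (edgeR adjusted p = 0.0199).

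H4C14 and H4C15 share 95.2 to 100% of their 31-base words. At day 6 H4C15 had 1.88, 2.82 and 2.69 CPM in vehicle and 0 in all 3 treated libraries, where H4C14 held every read. Together they had 3.42, 3.48 and 5.65 CPM in day 6 vehicle, 3.28, 4.23 and 3.06 CPM with EPZ011989, 3.73, 3.42 and 3.87 CPM in day 12 vehicle, and 7.63, 7.79 and 7.19 CPM with EPZ011989. The sum overlapped at day 6 (log2 fold change -0.25 ± 0.22, edgeR adjusted p = 0.425). At day 12 treated libraries stood above all others, and the sum rose by 1.04 ± 0.22 (edgeR adjusted p = 8.15e-04). The difference between days was 1.29 ± 0.32 (edgeR adjusted p = 0.00378). The calls of single copies (H2AC19 and H4C15 at day 6, H4C14 at day 12, H4C15 for the difference) therefore describe the split as much as the level. The H4C14 call at day 12 was also lost without EPZ011989 replicate 1 of that day (1.84, edgeR adjusted p = 0.0561), and that of H2AC19 without any of day 6 vehicle replicates 1 to 3 or EPZ011989 replicate 1 or 2 (6.92 to 7.64, adjusted p = 0.0615 to 0.0855). With both pairs summed, 2 of 21 members were called at day 6 and 12 of 21 at day 12, 6 higher and 6 lower. That fit called 5137 of 15002 genes at day 6 and 10053 at day 12, 5060 higher and 4993 lower.

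**Figure D4:**
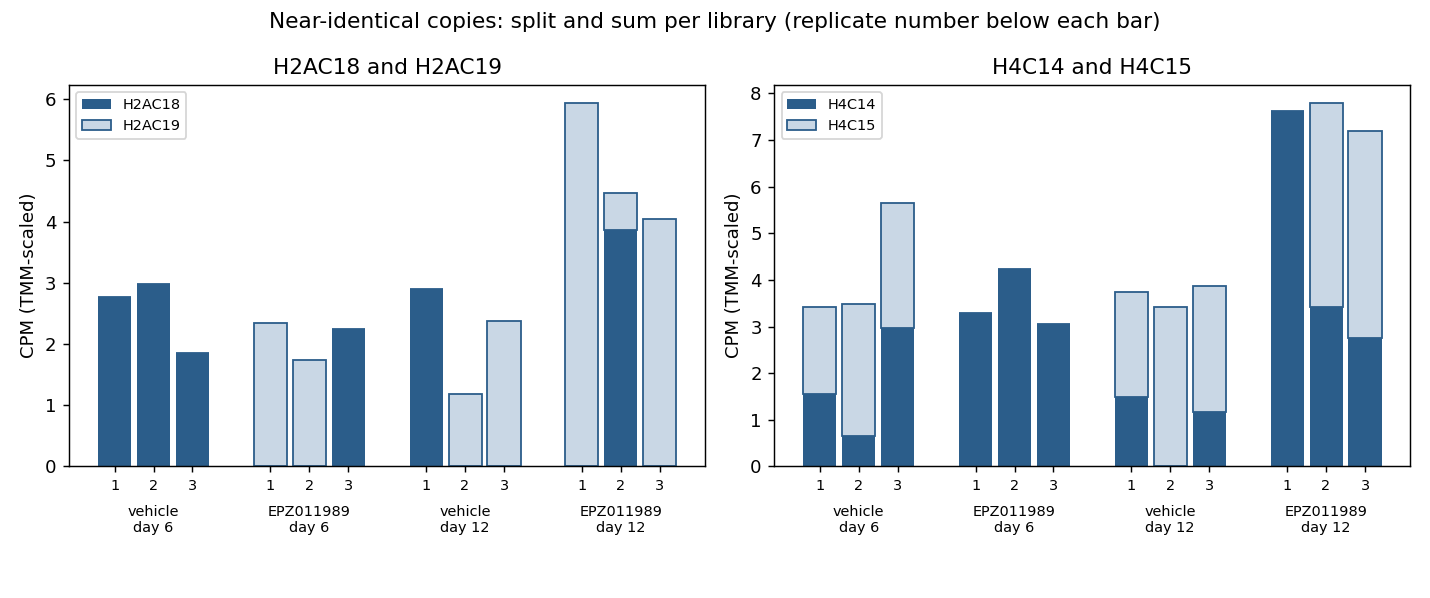
CPM of H2AC18 and H2AC19 (left) and of H4C14 and H4C15 (right), stacked per library. The split between copies changes from library to library, while the summed bars are highest in the 3 EPZ011989 day 12 libraries, at 4.05 to 5.94 and 7.19 to 7.79 CPM.

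No H1 gene was called. H1-2, the H1 gene with the most reads, had 2.82, 2.17 and 2.59 CPM in day 6 vehicle, 1.42, 3.33 and 1.67 CPM with EPZ011989, 1.42, 1.46 and 2.51 CPM in day 12 vehicle, and 1.02, 0.302 and 1.29 CPM with EPZ011989. The day 12 ranges did not overlap, but H1-2 missed the threshold, at -1.04 ± 0.48 on the log2 scale (edgeR adjusted p = 0.0715). H1-4 had -1.25 ± 0.64 (edgeR adjusted p = 0.0994). The remaining H4 gene tested, H4C11, was at 0 in several libraries and was not called (0.89 ± 1.51 at day 12, edgeR adjusted p = 0.62). H4C8, the H4 gene of chromosome 6 with the most reads, was not tested and had 0.322, 0.449 and 0.258 CPM in day 12 vehicle and 0.358, 0.352 and 0.506 CPM with EPZ011989.

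The 33 members not tested summed to 5.36, 5.76 and 4.07 CPM in day 6 vehicle, 3.63, 3.91 and 3.46 CPM with EPZ011989, 5.67, 5.66 and 5.61 CPM in day 12 vehicle, and 2.51, 3.37 and 1.97 CPM with EPZ011989. Treated libraries lay below vehicle libraries at both days. In vehicle cells between day 6 and day 12, 0 of 23 tested members were called by edgeR, 1 had an unadjusted p under 0.05, and the DESeq2 test also called 0, against 13.2% of all genes by edgeR, 6.05% higher and 7.15% lower. For the difference between the effects at day 12 and day 6, 3 of 23 were called, all higher at day 12 (H2BC21, H2BC15 and H4C15), against 47.8% of all genes, 22.7% higher and 25.1% lower.

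Genes that serve the histone mRNAs mostly fell at day 12. Of 26 tested genes of histone mRNA processing and transcription, 20 fell and 3 rose (median log2 fold change -0.55), against 33.3% lower and 33.7% higher over all genes. SLBP had 143 ± 1.8 CPM in day 12 vehicle and 62.1 ± 3.5 CPM with EPZ011989, so that its log2 fold change was -1.20 ± 0.05 (edgeR adjusted p = 4.32e-11), after -0.27 ± 0.05 at day 6 (edgeR adjusted p = 8.67e-04). NPAT, the histone locus coactivator, changed by -0.92 (log2) at day 12 (edgeR adjusted p = 2.9e-07) and had 0.06 at day 6 (adjusted p = 0.603). CASP8AP2 (FLASH), a cofactor of 3′ end cleavage, had -1.30 at day 12 (edgeR adjusted p = 5.71e-10), and CDK2 and CCNE2, the kinase and cyclin that activate NPAT, -1.94 and -2.54. Of 17 genes of histone mRNA decay, 10 fell and 1 (DCP1A, 0.39) rose, with a median of -0.48 beside 0.02 over all genes. DCP2, a decapping enzyme, had -1.12, and LSM3 and LSM4, of the LSM ring, -1.08 and -0.76, all called.

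Histone chaperones and importers fell too, 24 of 29 at day 12 with 3 raised (median -0.95), against 33.3% lower and 33.7% higher over all genes. They included the CAF-1 subunits CHAF1A (-1.81) and CHAF1B (-1.75), ASF1B (-2.23) and NASP (-1.17). All 34 tested S phase genes fell at day 12 (median -1.92), and 27 of 34 at day 6 (median -0.36). Over all genes 33.3% were lower at day 12 and 17.1% at day 6. Among them were MCM3 (-1.83), MCM4 (-2.02) and E2F1 (-2.09). MKI67, a marker of cycling cells, went from 1081 ± 30.9 to 211 ± 8.71 CPM at day 12, and EZH2 from 175 ± 9.68 to 59.97 ± 2.44 CPM. In these bulk samples fewer cells in S phase and less RNA per cell cannot be told apart, and the part of the S phase genes in the histone values was not tested.

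Other histone genes, whose symbols in the authors' table do not match the rule, were mostly lower with EPZ011989 at day 12. Of 13 tested, 8 fell and 2 rose, against 33.3% lower and 33.7% higher over all genes. Per length, the variants H3-3B, with 1468 and 1325 TPM in day 12 vehicle and EPZ011989, and H2AZ1, with 1021 and 429 TPM, stood above H2BC12, the highest member. CENPA (the centromeric H3), H2AZ1 and H2AX fell by 1.89, 1.38 and 1.36 on the log2 scale, and MACROH2A2, H2AZ2, H1-10, MACROH2A1 and H3-3B by 0.74 to 0.18. H2AW, a replication-dependent gene of chromosome 1 that the table lists under this symbol and not under its older name HIST3H2A, rose by 1.14 ± 0.19 (edgeR adjusted p = 1.02e-04), from 9.91, 11.4 and 7.60 CPM in day 12 vehicle to 22.2, 23.7 and 18.04 CPM with EPZ011989, and is named after its value was seen. H3-3A (-0.13) and H2AJ (0.04) were not called. Of 12 tested genes of other kinds inside the histone clusters, 6 fell and none rose at day 12, against 33.3% lower over all genes, among them ZNF184 (-0.66), PRSS16 (-0.78), HMGN4 (-0.43) and ABT1 (-0.29).

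**Figure D5:**
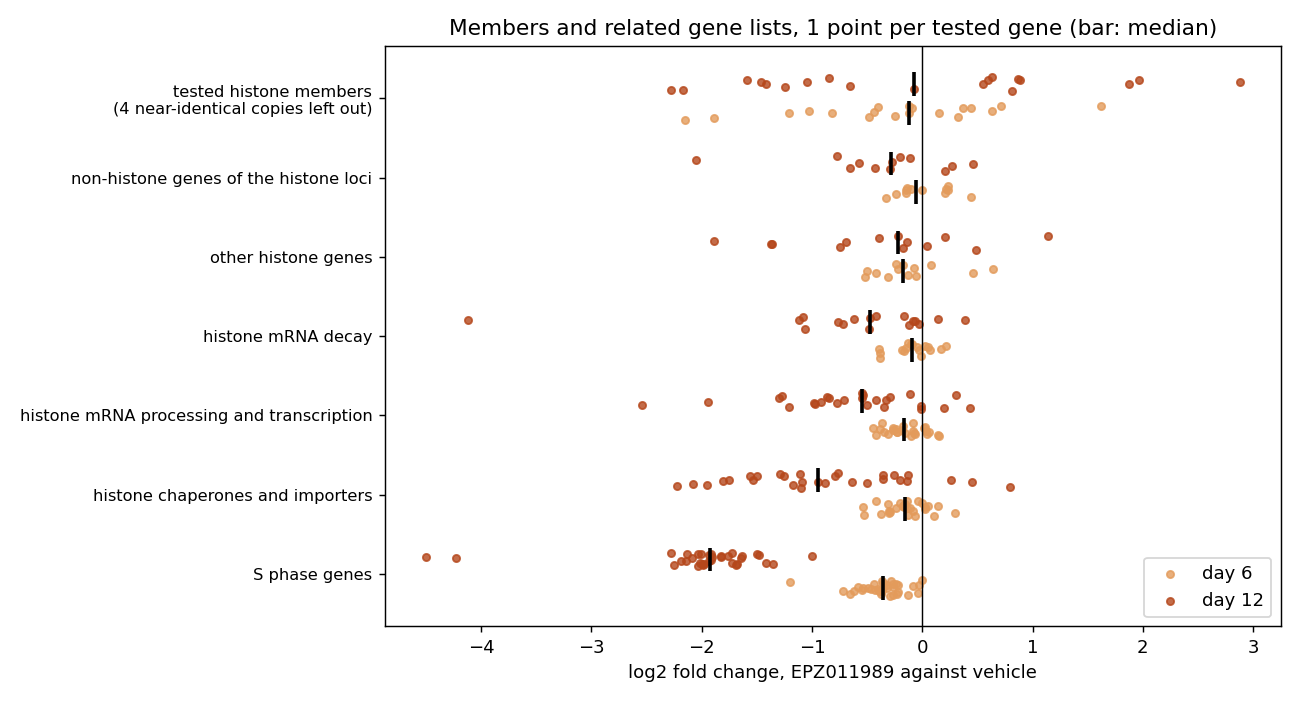
Log2 fold change of EPZ011989 against vehicle at day 6 (light) and day 12 (dark), 1 point per tested gene and a bar at the median, for the members (4 near-identical copies left out) and 6 related lists. At day 12 the S phase genes all lie below 0, while the members spread to both sides.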

How the data were processed

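PolyA-captured mRNA of 12 libraries, 3 per group, was analysed. The members and the gene lists were chosen with earlier results of these data known. The authors deposited Salmon estimated counts and TPM per transcript (Salmon 1.2.0 with hg38, FastQC and DESeq2 are listed in the submitters' processing notes), and a normalized gene table whose values are used as a signal. The sources used here do not give how the authors normalized that signal. Estimated counts of 179883 transcripts per library were summed to 35288 genes through GENCODE release 29 (93.5% of transcripts matched; 3.11 to 3.62% of reads were unmatched) and rounded. A model with 4 groups was fitted in edgeR 4.0.16 (R 4.3.3) with the default low-count filter and TMM, by the quasi-likelihood test with Benjamini-Hochberg adjustment at 0.05 over 15004 genes. DESeq2 1.42.0 and limma 3.58.1 were alternatives. Other alternatives were other scalings, filters, a transcript length offset, each replicate left out and a replicate block. Copies were summed, and the length class, head-to-head pairs and cluster sums were added, after the data were seen.

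Promoter windows came from RefSeq. Named members are the 12 of highest mean CPM, up to 6 called rises and 6 called falls per comparison whose groups did not overlap, and the highest of each type and cluster. From each other list, up to 4 called genes of smallest p per treatment comparison are named, plus a set chosen by name (SLBP, NPAT, CASP8AP2, NASP, EZH2, MKI67 and 10 histone genes outside the clusters). Library depth of 15994997 to 20866370 reads makes 3 reads 0.147 to 0.193 CPM, and this floor covers counting error only. Tested on simulated data of 15004 genes with 200 changed, the day 12 comparison recovered 82% of 2-fold and 98% of 4-fold changes with 15 false calls. The changed genes were drawn only from levels above those of several tested members (mean CPM of H2AC13 0.447, H2BC9 0.789 and H2AC20 0.893). Recovery at such low levels was not measured. Far more genes were called in the data than were changed in the simulation. The protein sequences of the members were not analysed here, and values of some genes of the lists are not reported here.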

Additional observations from a re-analysis of the deposited data

Results flagged for a closer look

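The effect of EPZ011989 at day 12 differed from that at day 6 for the following genes, by a test of the difference itself in the fit of all genes (edgeR adjusted p under 0.05). Each value is the day 12 log2 fold change minus the day 6 one. Beside H2BC15 (1.43) and H2BC21 (1.25), the sums H2AC18+H2AC19 (1.42) and H4C14+H4C15 (1.29) rose more at day 12. The single copy H4C15 gave 8.54, a value set by the split of reads with H4C14.

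Most S phase genes named here fell more at day 12. The differences were -1.61 for MCM3, -1.66 for MCM4, -1.53 for MCM6, -0.95 for MCM7, -1.37 for E2F1, -1.34 for CDC25A and -1.44 for CDT1. MKI67 gave -2.03 and EZH2 -1.36.

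Genes of histone mRNA production also fell more. SLBP gave -0.94, NPAT -0.98, CASP8AP2 -1.15, CCNE2 -2.18, CDK2 -1.59, SNRPB -0.57 and SNRPF -0.66. Of the decay genes, DCP2 gave -1.07, LSM3 -0.99, LSM4 -0.38, EXOSC10 -0.57 and TUT4 -0.65.

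The chaperones gave -1.69 for ASF1B, -1.39 for CHAF1A, -1.59 for CHAF1B, -1.14 for NASP, -1.001 for DNAJC9 and -1.01 for TONSL. Histone genes outside the clusters gave -1.39 for CENPA, -1.05 for H2AX, -0.85 for H2AZ1, -0.52 for H2AZ2 and -0.33 for MACROH2A2. Of the other genes within the clusters, PRSS16 gave -0.54 and ZNF184 -0.65.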

How the results depend on the processing

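The members' day 12 median log2 fold change of 0.45 became -0.0764 without 4 near-identical copies. No called log2 fold change of a named member changed direction under the alternatives run. The 4 members called at day 6 became 2 with a stricter filter (9 members tested), at an adjusted p under 0.01 and with copies summed, and 2 to 5 with each replicate left out. The 11 called at day 12 became 5 with the stricter filter, 6 with a transcript length offset, 6 at an adjusted p under 0.01, and 8 to 12 with each replicate left out. The 3 called for the difference became 2 to 4 with each replicate left out. The 0 called over time in vehicle became 1 without a filter, and 0 to 1 with each replicate left out. On the authors' table, scaled to CPM, the summed level in day 6 EPZ011989 was 40.3 for all members, 3.00 for H4 and 13.8 for the chromosome 1 cluster, and that of H4 was 6.03 in day 12 vehicle and 9.03 in day 12 EPZ011989. The day 6 vehicle sums on that table are not given here, so no day 6 effect can be read from these levels. Causes were not tested. Over all genes, 3234 were called at day 6 with the length offset against 5134, and 16 over time in vehicle with only those libraries fitted against 1981.

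Same-numbered libraries did not deviate together (correlations -0.05 to 0.09), so the numbers give no pairing. With a replicate block 4, 11, 3 and 0 members were called at day 6, at day 12, for the difference and over time in vehicle.

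Depth limits the 33 untested members, and polyA capture limits all of them to transcripts it recovers.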
